A study of Homo sapiens with 4 samples.

Results

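The ZBTB, ZSCAN and ZKSCAN genes are 3 families of human DNA-binding proteins named after the domain that precedes their C2H2 zinc fingers. They were measured in HEK293 cells, a human embryonic kidney cell line, kept in high or in low glucose. Members were the probe sets that the platform annotation assigned to exactly 1 gene whose symbol is ZBTB, ZSCAN or ZKSCAN followed by a number. This gave 152 probe sets of 66 genes, out of 54675 probe sets and 19777 genes in the series. ZBTB accounted for 99 probe sets of 41 genes, ZSCAN for 36 of 18 genes and ZKSCAN for 17 of 7 genes.

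Cells of the high glucose group grew for 7 days in DMEM with fetal calf serum and 450 mg/dl glucose, and those of the low glucose group in the same medium and serum with 100 mg/dl. Each group had 2 arrays, described in the labels as biological replicates, with no word on separate cultures. P-values therefore measure only the spread between these samples, which may be technical. The question is how transcript levels of the families differ between the glucose concentrations.

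As background, a ZBTB protein carries an N-terminal BTB domain, through which it pairs with itself or a relative and recruits corepressors such as NCOR1 and BCOR, and a row of zinc fingers that reads DNA. In ZSCAN and ZKSCAN proteins the N-terminal domain is a SCAN domain, which also forms dimers. Most ZKSCAN proteins add a KRAB domain. In many other zinc finger proteins a KRAB domain binds TRIM28 and through it the H3K9 methyltransferase SETDB1 and heterochromatin proteins. Whether the KRAB domains of ZKSCAN proteins do so was not tested here. Many members are known as repressors, and several have no well-described role.

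RefSeq promoter windows of GRCh38.p14, from 250 bases before to 50 after a listed transcription start, were at hand for 57 of the 66 genes, as 104 windows among 35116 for all genes. They are shown for 5 genes that the results below turn on. ZBTB1 shares its start region with ZBTB25, and both rose. ZBTB24 rose on every probe set measured, ZBTB42 had the lowest log2 difference of its family, ZBTB44 had the smallest adjusted p of all members, and ZSCAN18 had the smallest adjusted p of its family. Each sequence runs 5′ to 3′ on the gene's strand, and capitals mark CACGTG, the palindromic E-box, and GGGCGG, the GC box, which reads CCGCCC on the other strand.
ZBTB1, chr14:64503637-64503936, plus strand: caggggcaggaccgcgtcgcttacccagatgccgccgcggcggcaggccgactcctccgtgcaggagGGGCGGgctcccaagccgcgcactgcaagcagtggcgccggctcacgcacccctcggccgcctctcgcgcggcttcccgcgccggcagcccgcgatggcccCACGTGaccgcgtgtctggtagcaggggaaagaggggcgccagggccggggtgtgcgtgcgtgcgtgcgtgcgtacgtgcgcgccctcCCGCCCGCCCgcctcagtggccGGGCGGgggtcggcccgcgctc
ZBTB24, chr6:109483170-109483469, minus strand: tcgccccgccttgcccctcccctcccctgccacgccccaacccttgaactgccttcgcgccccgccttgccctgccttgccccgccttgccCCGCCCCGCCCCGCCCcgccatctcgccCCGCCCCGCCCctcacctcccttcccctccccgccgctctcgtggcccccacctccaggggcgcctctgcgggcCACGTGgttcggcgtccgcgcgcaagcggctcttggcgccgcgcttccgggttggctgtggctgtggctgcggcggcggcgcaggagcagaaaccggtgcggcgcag
ZBTB42, chr14:104800851-104801150, plus strand: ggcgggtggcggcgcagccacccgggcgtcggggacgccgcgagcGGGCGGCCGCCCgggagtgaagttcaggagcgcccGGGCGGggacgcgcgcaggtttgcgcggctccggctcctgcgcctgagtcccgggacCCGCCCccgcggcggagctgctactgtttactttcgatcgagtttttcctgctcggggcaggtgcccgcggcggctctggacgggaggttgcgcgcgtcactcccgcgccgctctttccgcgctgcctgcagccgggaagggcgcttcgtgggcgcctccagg
ZBTB44, chr11:130314868-130315167, minus strand: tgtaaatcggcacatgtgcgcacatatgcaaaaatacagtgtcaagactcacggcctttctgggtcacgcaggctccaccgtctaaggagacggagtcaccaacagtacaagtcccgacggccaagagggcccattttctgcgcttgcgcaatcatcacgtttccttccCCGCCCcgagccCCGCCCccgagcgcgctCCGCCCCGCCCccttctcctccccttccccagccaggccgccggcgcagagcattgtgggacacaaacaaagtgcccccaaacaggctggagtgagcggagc
ZSCAN18, chr19:58118355-58118654, minus strand: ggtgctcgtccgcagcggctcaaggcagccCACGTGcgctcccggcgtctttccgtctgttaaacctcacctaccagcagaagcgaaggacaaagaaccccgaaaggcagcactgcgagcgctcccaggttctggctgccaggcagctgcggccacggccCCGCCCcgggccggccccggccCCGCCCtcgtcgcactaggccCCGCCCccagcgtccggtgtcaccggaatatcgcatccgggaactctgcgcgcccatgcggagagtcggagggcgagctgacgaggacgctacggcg

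The windows of ZBTB1, ZBTB24 and ZSCAN18 each held 1 CACGTG, and those of ZBTB42 and ZBTB44 held none. Over all member windows CACGTG was found in 11 of 104 (10.6%), against 7.3% of all windows. Members called higher held it in 3 of 11 windows and members called lower in 3 of 32. The 3 windows of members called higher were those of ZBTB24 and the overlapping ones of ZBTB1 and ZBTB25. The GC box was found in 59.6% of member windows and 45.0% of all windows, and CCAAT in 41.3% and 34.6%. CTCGCGAG, the element reported for ZBTB33, was found in 1.9% of member windows and 1.0% of all, and TGATGNAA, the core of the ATF4 element, in 1.9% and 3.6%. Both strands were searched. Windows of 1 gene can overlap, and 22 members had more than 1. A match is a description of the letters only.

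Over all 12242 genes tested, the median log2 difference between high and low glucose was -0.10. Called means an adjusted p under 0.05 in the limma fit over these genes, with the brightest probe set standing for each gene. Of all genes tested, 24.3% were called higher and 33.3% lower in high glucose. A mean signal at or above 32.9, the median over probe sets, was required. The 4 arrays had median signals between 33.3 and 38.7. Across genes the replicate correlations were r = 0.990 in high and r = 0.989 in low glucose, and across the groups r was 0.928 to 0.931. The 24 poly-A spike probe sets, which report RNA added during labelling, were all higher in high glucose, with a median of 3.84-fold, and 5 of the 6 ribosomal RNA probe sets were separated in the same direction. The 18 hybridisation controls had a median log2 difference of -0.34, with medians of 486 and 875 in high glucose, against 869 and 891 in low glucose. Whether these shifts bear on the members was not tested. The HEK293 marker list had 7 of 10 genes above the filter on all arrays, with NEFM below it on all, and a summed signal of 22913 and 25681 in high glucose, against 20683 and 21157 in low glucose. Within that list KRT8 and KRT18 were higher in high glucose, KRT18 at 8315 and 9775 against 4293 and 4309, and VIM was lower, at 5567 and 5971 against 10580 and 11040. Of the other cell types' markers, COL1A1 and COL3A1 of the 5 fibroblast genes were above the filter on all arrays, and the fibroblast sum was 523 and 519 in high glucose, against 328 and 354 in low glucose. None of the 4 leukocyte and 4 endothelial genes measured was above it on all arrays.

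Members were lower more often than higher in high glucose, and by modest amounts. Of the 57 genes past the filter, 6 (10.5%) rose and 24 (42.1%) fell, against 24.3% and 33.3% of all genes tested. The other 27 were not called. The median log2 difference of the 57 was -0.25. In bulk RNA, fewer cells expressing a gene and less of its RNA per cell cannot be told apart. All 30 called members had arrays that did not overlap between groups, as did 41 of the 57 (71.9%), against 79.8% of all genes tested. Folds among the called members ran from 1.16 to 2.61, with a median of 1.5. Only ZBTB42 and ZKSCAN2 changed by 2-fold or more, both downwards, which is 3.51% of members. Among all genes tested 8.03% fell and 3.42% rose by that much.

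The share of calls varied with signal level. In the dimmest quartile of all genes 7.3% were called higher and 29.6% lower, in the next quartile 18.6% and 36.1%, in the third 31.4% and 35.2%, and in the brightest 39.8% and 32.4%. From the dimmest to the brightest quartile, 15, 26, 11 and 5 members fell in each, of which 1, 3, 2 and 0 were called higher and 4, 10, 6 and 4 lower. Most members thus lay in the dimmer quartiles, where genes in general were called higher less often. The median log2 difference of all genes also varied, at -0.341, -0.153, -0.016 and 0.057 from the dimmest to the brightest quartile. The family medians below are set beside all genes tested, not beside genes of like signal.

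**Figure D1:**
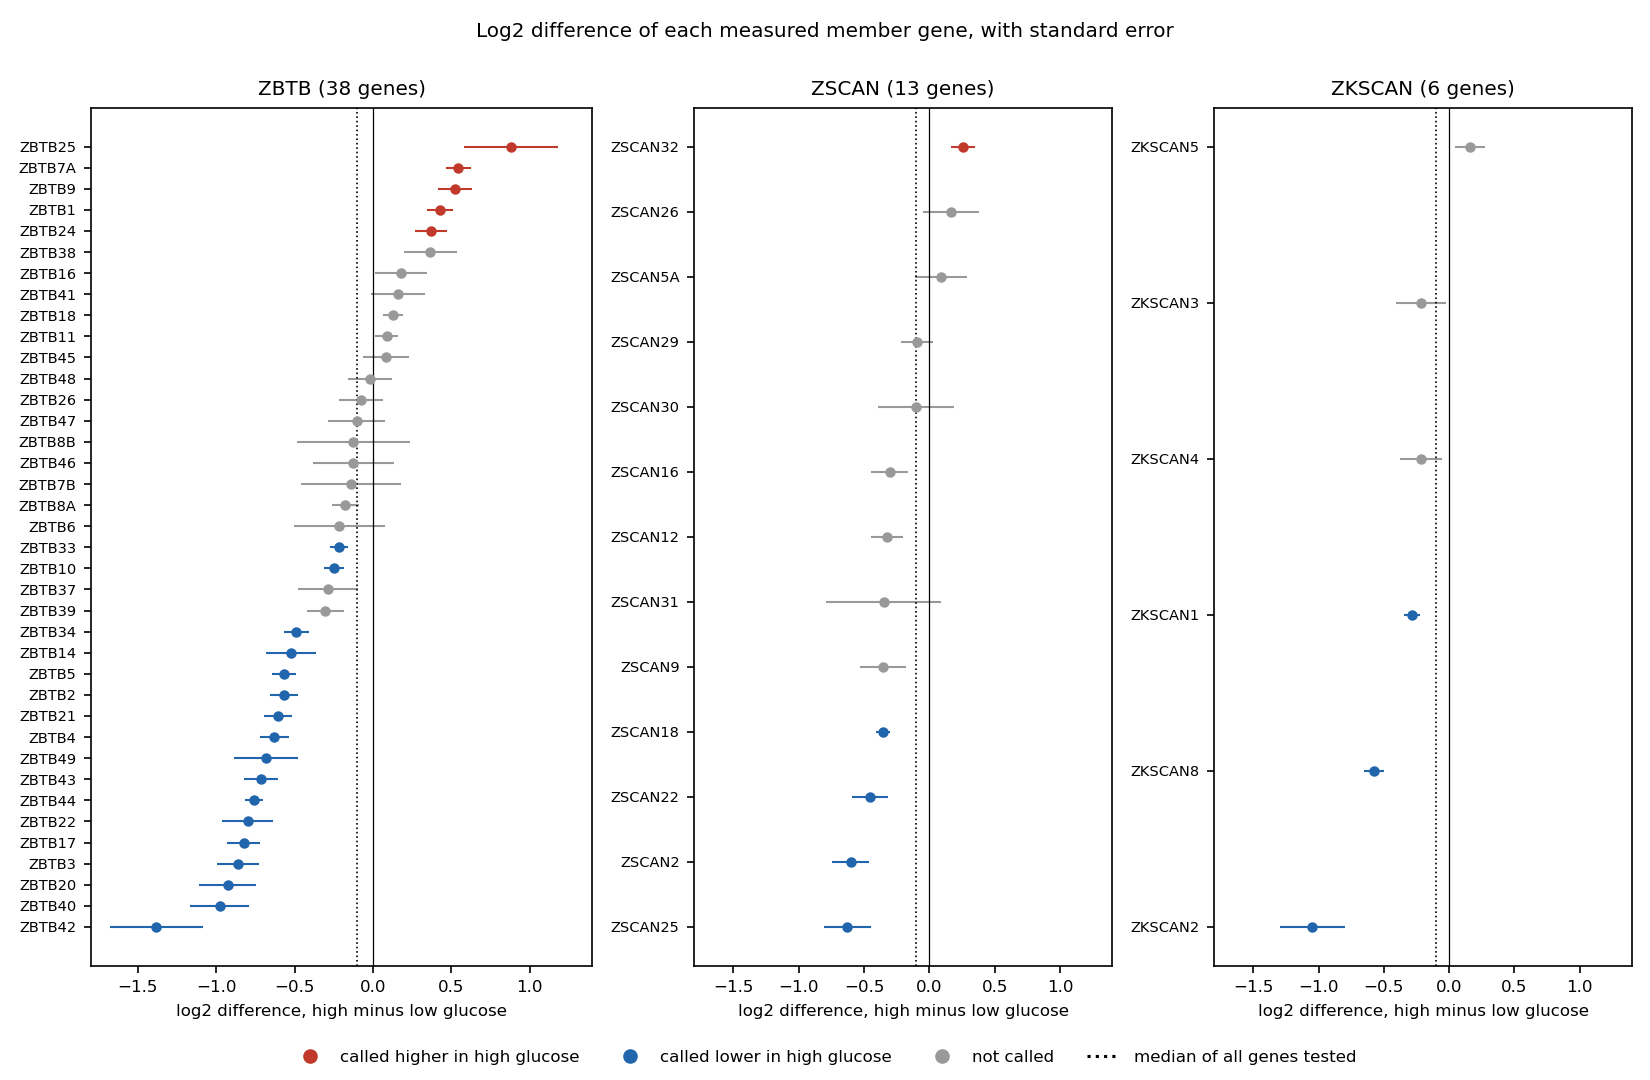
Log2 difference between high and low glucose of the 57 member genes past the filter, by family, with standard errors from the fit as bars. The dotted line is the median of all genes tested, -0.10, and 24 genes called lower lie left of it, with 6 called higher to the right.

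ZBTB, the largest family, had 38 genes past the filter. Its median log2 difference was -0.22, and the range ran from -1.38 for ZBTB42 to 0.88 for ZBTB25. Of the 38 genes, 5 (13.2%) rose, 17 (44.7%) fell and 16 were not called. Among all genes tested 24.3% rose and 33.3% fell. By fold, 11 genes (28.9%) fell and 1 (2.63%) rose by 1.5-fold or more, against 19.3% and 10.8% of all genes tested.

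ZBTB42, a relative of ZBTB18 studied in skeletal muscle, had signals of 30.3 and 51.2 in high glucose, against 102 and 103 in low glucose. Both high glucose arrays lay below both low glucose arrays, and 1 of them lay below the filter level. Its log2 difference was -1.38 ± 0.29 (SE, adjusted p = 0.00518), the lowest among the members.

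ZBTB40, which genetic studies have linked to bone density, had 181 and 229 signal units in high glucose against 484 and 334 in low glucose. The low glucose arrays were farther apart than the high glucose ones, and the groups did not overlap. The log2 difference was -0.98 ± 0.19 (adjusted p = 0.00310). Its second probe set past the filter had a log2 difference of -0.03 and was not called, so the fall rests on 1 probe set, and the mean of both gave -0.50.

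ZBTB20, a repressor of alpha-fetoprotein in mouse liver, had 75.5 and 85.6 in high glucose, against 169 and 138 in low glucose. All high glucose values were below all low glucose values, with a log2 difference of -0.93 ± 0.18 (adjusted p = 0.00354). It was the member with most probe sets, and all 7 of its probe sets past the filter had negative differences, of which 5 were called lower. The dimmest of these 5 had 29.5 and 11.6 in high glucose, both below the filter level, so it passed only through the low glucose group. Without probe sets named _x_at or _s_at, another probe set represents the gene, and the log2 difference of -0.31 was not called (adjusted p = 0.176).

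ZBTB3 had 135 and 132 in high glucose against 223 and 263 in low glucose. The groups were well apart, with a log2 difference of -0.86 ± 0.14 (adjusted p = 0.00120). Its other probe set showed 0.16 and was not called, and with the mean of both probe sets the difference was -0.35 and no longer called (adjusted p = 0.0805).

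ZBTB17, also called MIZ1, binds MYC and activates the cell cycle inhibitor genes CDKN1A and CDKN2B, which MYC represses through it. Its signals were 172 and 174 in high glucose, against 307 and 307 in low glucose. The arrays of each group nearly coincided, and the log2 difference was -0.83 ± 0.10 (adjusted p = 0.000383).

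ZBTB22, encoded on chromosome 6, had 96.4 and 114 in high glucose, against 198 and 168 in low glucose, a log2 difference of -0.80 ± 0.17 (adjusted p = 0.00442). The groups did not overlap. It has 1 probe set.

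ZBTB44 had 650 and 650 in high glucose against 1105 and 1098 in low glucose, so each group's arrays nearly coincided. The log2 difference was -0.76 ± 0.06, and its adjusted p of 3.41e-05 was the smallest of the members. It was also the only member with probe sets called in opposite directions, described below.

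ZBTB43 had 178 and 165 in high glucose, against 283 and 280 in low glucose, a log2 difference of -0.71 ± 0.11 (adjusted p = 0.00106). That value comes from a probe set whose name ends in _x_at, a class that can bind transcripts of other genes. The 4 other probe sets of ZBTB43 had positive differences, from 0.21 to 1.39, none of them called, and the mean over its probe sets gave 0.31, so its direction depends on the probe set.

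The other 9 ZBTB genes called lower were ZBTB49, ZBTB4, ZBTB21, ZBTB2, ZBTB5, ZBTB14, ZBTB34, ZBTB10 and ZBTB33, with log2 differences from -0.68 to -0.22. ZBTB33, known as Kaiso, and its relative ZBTB4 bind methylated CpG. ZBTB33 had 1348 and 1320 in high glucose against 1600 and 1505 in low glucose. The groups were separate but close, at -0.22 ± 0.06 (adjusted p = 0.0142), the smallest fold of all called members. ZBTB4 had 468 and 422 in high glucose, against 738 and 640 in low glucose, a log2 difference of -0.63 ± 0.09 (adjusted p = 0.000855), while its second probe set showed -0.02 and was not called.

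Of these 9, ZBTB49 and ZBTB14 lay lowest in signal. ZBTB49 was no longer called without high glucose array 1 (adjusted p = 0.0919) or low glucose array 2 (adjusted p = 0.136). ZBTB14 had 92.2 and 90.6 in high glucose, against 131 and 131 in low glucose, but was not called when any 1 array was left out, with adjusted p between 0.0690 and 0.0812, nor after any of the 3 other normalizations. ZBTB33 lost its call without high glucose array 2 (adjusted p = 0.0603) or low glucose array 1 (adjusted p = 0.0789), or without an intensity trend in the fit (adjusted p = 0.0721). ZBTB10 lost its call without high glucose array 2 (adjusted p = 0.0556).

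Among the 5 ZBTB genes that rose, ZBTB25 had the largest log2 difference. It has been described as a repressor in T cells, and had 66.1 and 55.6 in high glucose against 28.1 and 38.5 in low glucose. One low glucose array lay below the filter level. The difference was 0.88 ± 0.30 (adjusted p = 0.0372), and the call was lost without high glucose array 1, high glucose array 2 or low glucose array 1, with adjusted p of 0.199, 0.0933 and 0.136, and without a filter (adjusted p = 0.0843).

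ZBTB1, needed for lymphoid development in the mouse, had 415 and 402 in high glucose, against 294 and 313 in low glucose, a log2 difference of 0.43 ± 0.08 (adjusted p = 0.00371). The groups were clearly apart. ZBTB1 lies on the plus strand of chromosome 14 and ZBTB25 on the minus strand, and a listed start of each lies 49 bases from the other, inside the ZBTB1 window printed above. RefSeq lists further starts for both. Among the 57 members with a promoter window, no other pair had starts within 5000 bases of each other on opposite strands. Starts of the members without a window were not examined.

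ZBTB7A, a repressor of fetal globin genes also reported to repress glycolysis genes, had 578 and 550 in high glucose against 372 and 401 in low glucose. The groups did not overlap, at 0.55 ± 0.08 (adjusted p = 0.000745). Of its 4 probe sets past the filter, 2 were called higher and the other 2 were not called. The dimmer of the called ones had 16.8 and 30.6 in low glucose, both below the filter level. It passed only through the high glucose group and adds no support to the rise.

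ZBTB9 had 249 and 247 in high glucose, against 174 and 171 in low glucose, with nearly equal arrays in each group and a log2 difference of 0.52 ± 0.11 (adjusted p = 0.00496).

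ZBTB24, which is mutated in a form of the ICF immunodeficiency syndrome with loss of DNA methylation at pericentromeric repeats, had 320 and 318 in high glucose against 264 and 231 in low glucose. Its log2 difference was 0.37 ± 0.10 (adjusted p = 0.0177). Without high glucose array 1, high glucose array 2 or low glucose array 2 the adjusted p was 0.0722, 0.0647 and 0.0761, and the call was lost. Its 2 dimmer probe sets rose too, by 1.43 and 1.15 on the log2 scale.

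Without either high glucose array, 3 ZBTB genes were called higher in place of 5. The 16 ZBTB genes that were not called had log2 differences between -0.30 and 0.37, with standard errors from 0.07 to 0.36, and the arrays of 10 of them overlapped. They were ZBTB6, ZBTB7B, ZBTB8A, ZBTB8B, ZBTB11, ZBTB16, ZBTB18, ZBTB26, ZBTB37, ZBTB38, ZBTB39, ZBTB41, ZBTB45, ZBTB46, ZBTB47 and ZBTB48. Among them are ZBTB16, the PLZF repressor, ZBTB7B, which directs helper T cell fate in the mouse, and ZBTB38, a methyl-CpG-binding relative of ZBTB33 and ZBTB4. ZBTB38 had 438 and 359 in high glucose against 366 and 259 in low glucose, so its groups overlapped, at 0.37 ± 0.17 (adjusted p = 0.101).

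**Figure D2:**
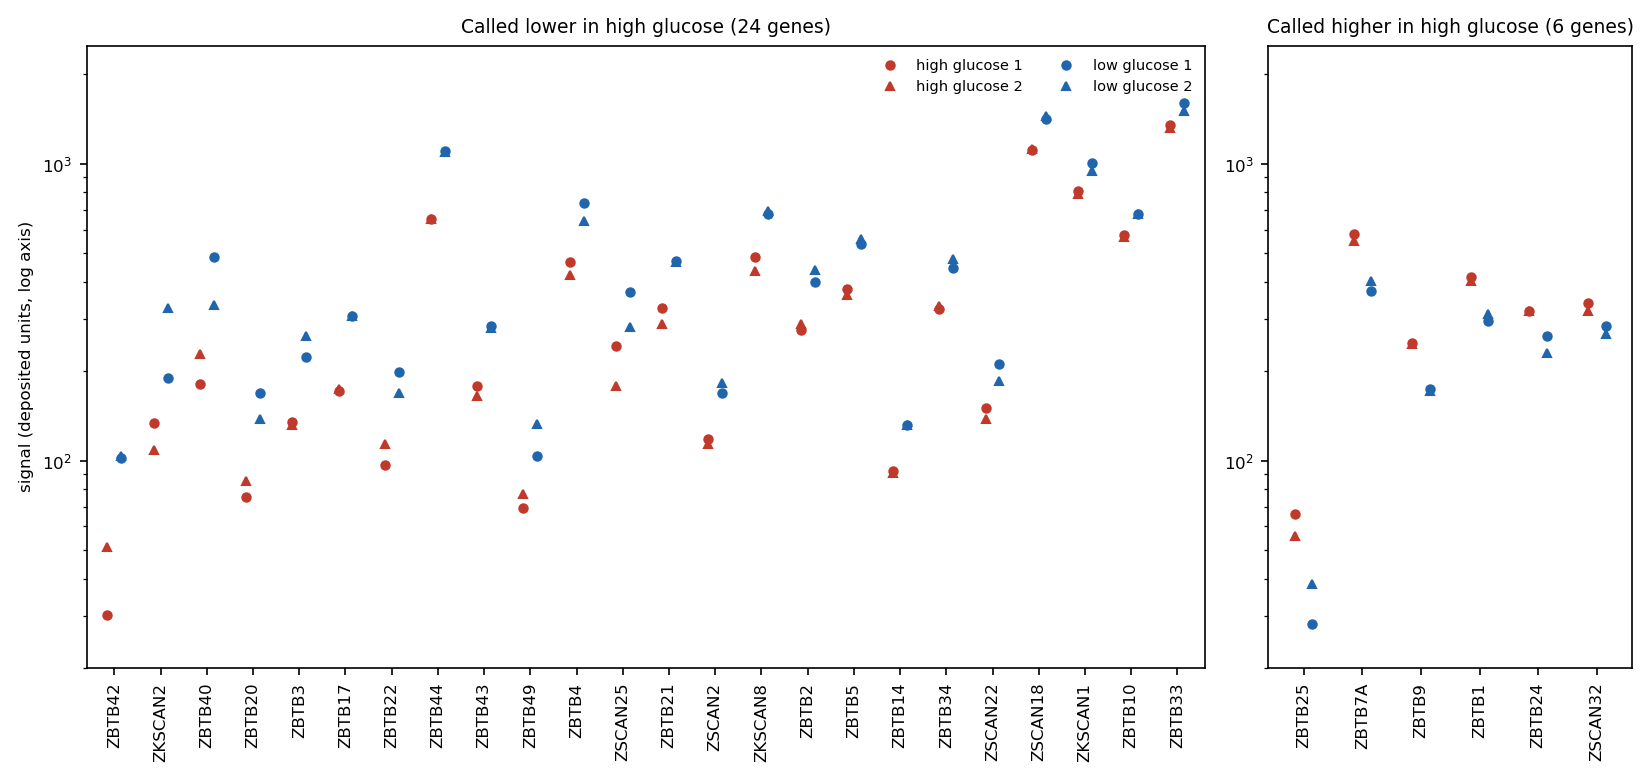
Signal of each array, on a log axis, for the 24 members called lower and the 6 called higher in high glucose, in order of log2 difference. Red points are the 2 high glucose arrays and blue points the 2 low glucose arrays, and in each gene the 2 colours do not overlap.

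The ZSCAN family had 13 genes past the filter, with a median log2 difference of -0.32. Of the 13 genes, 1 (7.7%) rose, 4 (30.8%) fell and 8 were not called, against 24.3% higher and 33.3% lower among all genes tested. The share that fell was thus near that of all genes. Without high glucose array 2 or low glucose array 1, 2 genes were called lower in place of 4.

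ZSCAN25 had the lowest log2 difference, with 243 and 179 in high glucose against 368 and 281 in low glucose. The highest high glucose value was below the lowest low glucose value, although arrays within each group differed. The difference was -0.63 ± 0.18 (adjusted p = 0.0192), and it was not called without high glucose array 2 (adjusted p = 0.102) or low glucose array 1 (adjusted p = 0.0965), nor without an intensity trend (adjusted p = 0.0762). Its second probe set showed -0.05 and was not called, and the mean of both gave -0.34 (adjusted p = 0.103).

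ZSCAN2 had 118 and 114 in high glucose, against 169 and 183 in low glucose, a log2 difference of -0.60 ± 0.14 (adjusted p = 0.00806). The groups were well separated. ZSCAN22 had 151 and 138 in high glucose, against 211 and 186 in low glucose, at -0.46 ± 0.14 (adjusted p = 0.0233), and its call too was lost without high glucose array 2 (adjusted p = 0.0938) or low glucose array 1 (adjusted p = 0.119).

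ZSCAN18, reported as silenced by promoter methylation in gastrointestinal tumours, had 1113 and 1122 in high glucose against 1415 and 1449 in low glucose. Arrays of the same group were close to each other, at -0.36 ± 0.05 (adjusted p = 0.00101). The value comes from a probe set named _s_at, and the other one past the filter gave 0.16, not called, so the direction depends on the probe set.

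ZSCAN32 was the 1 ZSCAN gene that rose, with 340 and 320 in high glucose, against 285 and 268 in low glucose. The groups were apart by a small margin, at 0.26 ± 0.09 (adjusted p = 0.0479). Leaving out any 1 of the 4 arrays ended the call, with adjusted p from 0.0602 to 0.199.

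The 8 ZSCAN genes not called were ZSCAN5A, ZSCAN9, ZSCAN12, ZSCAN16, ZSCAN26, ZSCAN29, ZSCAN30 and ZSCAN31, with log2 differences from -0.35 to 0.17, and the arrays of 5 of them overlapped. ZSCAN12 was nearest to the threshold, with 180 and 165 in high glucose against 214 and 217 in low glucose and a log2 difference of -0.32 ± 0.12 (adjusted p = 0.0502).

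The ZKSCAN family had 6 genes past the filter, with a median log2 difference of -0.25. None rose, 3 (50%) fell and 3 were not called, against 24.3% higher and 33.3% lower among all genes tested.

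ZKSCAN2 had 133 and 109 in high glucose, against 190 and 327 in low glucose, a log2 difference of -1.05 ± 0.25 (adjusted p = 0.00849). The groups did not overlap, but the low glucose arrays lay far apart, and without low glucose array 2 the difference was -0.66 (adjusted p = 0.0299). ZKSCAN8 had 484 and 435 in high glucose against 675 and 691 in low glucose. Its groups were farther apart than its arrays within a group, at -0.57 ± 0.08 (adjusted p = 0.000536).

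ZKSCAN1, whose gene also gives rise to an abundant circular RNA, had 809 and 793 in high glucose, against 1005 and 945 in low glucose, a log2 difference of -0.28 ± 0.06 (adjusted p = 0.00570). The groups were close but separate. None of its 3 other probe sets was called, and with the mean of all 4 the difference was -0.19 (adjusted p = 0.0595).

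ZKSCAN3, reported as a repressor of autophagy genes, had 82.7 and 86.5 in high glucose, against 108 and 89.6 in low glucose. The second low glucose array lay close to the high glucose ones, and the log2 difference of -0.22 ± 0.19 was not called (adjusted p = 0.366). ZKSCAN4 showed -0.22 ± 0.16 (adjusted p = 0.274) with overlapping arrays, and ZKSCAN5 showed 0.16 ± 0.12 (adjusted p = 0.274).

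The remaining 9 of the 66 genes had no probe set past the filter and were not tested. These were ZBTB7C, ZBTB12, ZBTB32, ZSCAN1, ZSCAN4, ZSCAN10, ZSCAN20, ZSCAN23 and ZKSCAN7, whose highest mean signal was 28.7. They include ZSCAN4, a gene of the early mouse embryo, and ZSCAN10, a factor of mouse embryonic stem cells. No detection calls were used, so a low signal carries no statement of absence.

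At the level of probe sets, 103 of the 152 passed the filter. Of these 12 (11.7%) were called higher and 33 (32.0%) lower in high glucose, against 23.1% and 27.2% of all 27307 probe sets tested. In ZBTB 10 of 75 rose and 26 fell, in ZSCAN 2 of 17 rose and 4 fell, and in ZKSCAN none of 11 rose and 3 fell.

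Probe sets of the same gene often differed. Among the 25 genes with 2 or more tested, 2 had all of them called in 1 direction, 14 had some called in 1 direction, 8 had none called and 1 had calls both ways. All differences had the same sign in 14 of the 25. ZBTB24 was called higher on all 3 probe sets, and ZBTB21 lower on both, at -0.61 and -0.95. ZBTB10 was lower on 3 of 5, with values down to -1.34.

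ZBTB44 was the gene with calls in both directions. Its 2 brightest probe sets were lower, at -0.76 and -0.23, while a dim one was higher at 1.02. That one had 52.3 and 62.7 in high glucose against 24.4 and 32.7 in low glucose. Its low glucose signals both lay below the filter level of 32.9, so it passed only through the high glucose group. The opposite call of ZBTB44 rests on this probe set alone. Which transcripts each probe set reads was not tested. The mean over its probe sets was 0.08 and not called.

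Some genes had a call only on a probe set other than the brightest. ZBTB38 was called higher on its second probe set, at 0.54, ZBTB47 lower on its second, at -0.75, and ZSCAN9 higher on its second, at 0.61, although its brightest showed -0.35.

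**Figure D3:**
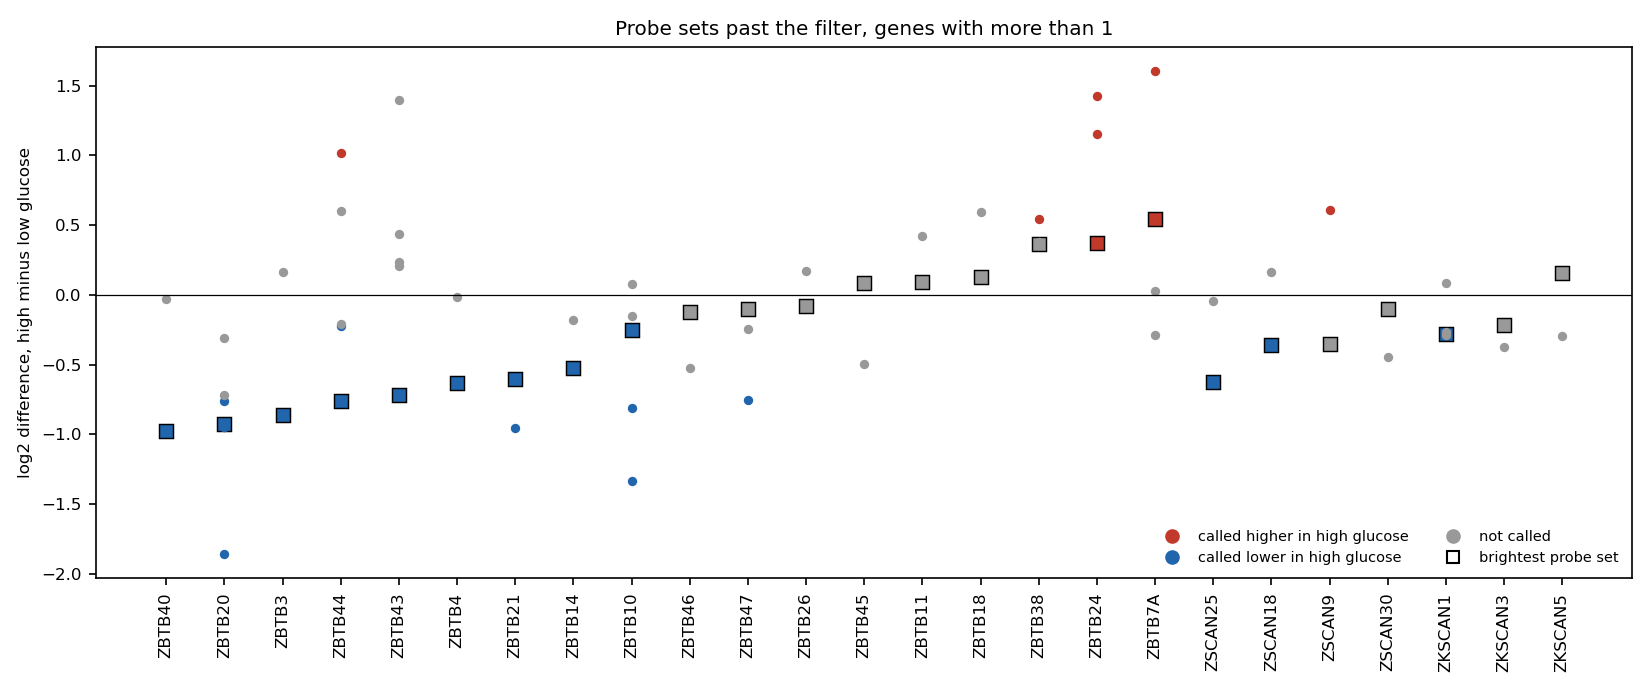
Log2 difference between high and low glucose of every probe set past the filter, for the 25 members with more than 1, with the brightest probe set of each gene as a square. Colours mark calls, and ZBTB44 is the only gene with both red and blue points. Its red point is a probe set with both low glucose arrays below the filter level.

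Several members are neighbours with no protein-coding gene between them in the RefSeq gene table. On chromosome 6 they form runs of ZSCAN16, ZKSCAN8, ZSCAN9 and ZKSCAN4, and of ZSCAN31, ZKSCAN3, ZSCAN12 and ZSCAN23. All 7 genes of these runs that were tested had negative differences on their brightest probe sets, from -0.57 to -0.22, but only ZKSCAN8 was called. ZSCAN26, the other ZSCAN or ZKSCAN gene tested on chromosome 6, lies outside these runs and was at 0.17, not called. The median of all genes tested was negative too, at -0.10, and ZSCAN9 was called higher on its second probe set, at 0.61. On chromosome 9, ZBTB43 and ZBTB34 were both called lower, at -0.71 and -0.49, with the limit given above for ZBTB43, and ZBTB6 and ZBTB26 were not called. On chromosome 1, ZBTB8A and ZBTB8B were not called.

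The arrays had been scaled before deposit, and 3 other normalizations were run. Centring each array on its median moved the median of all genes tested to 0.07 and the share of higher among all called genes to 58.8%, against 42.1% as deposited. The family medians then were -0.05 for ZBTB, -0.15 for ZSCAN and -0.08 for ZKSCAN. Relative to all genes they lay at -0.11, -0.22 and -0.15, against -0.12, -0.22 and -0.15 as deposited. All 6 rises and 17 of the 24 falls kept their call after quantile normalization, median centring and cyclic loess. ZBTB10, ZBTB14, ZBTB33, ZBTB49, ZKSCAN1, ZSCAN18 and ZSCAN22 lost theirs after median centring, and ZBTB11, ZBTB18 and ZBTB38 were then called higher.

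**Figure D4:**
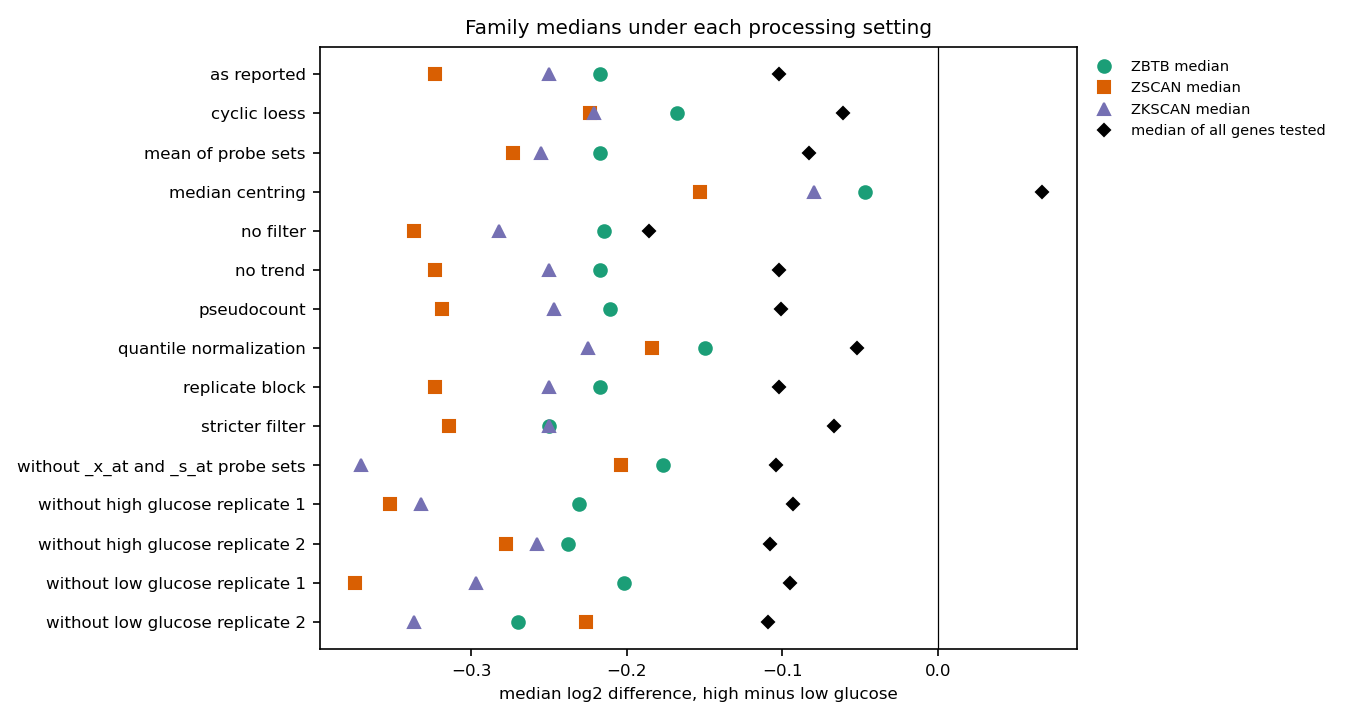
Median log2 difference between high and low glucose of each family and of all genes tested, as reported and under each of the 14 other settings. The family medians lay below the median of all genes tested in every setting shown, including median centring, where that of all genes was 0.07. Without the filter the ZBTB median was close to that of all genes, at -0.215 against -0.186. Signal level was not matched.

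Genes that share the domains under other names were counted in the same fit, from lists written from textbook knowledge. Of 8 other BTB domain genes tested, 2 (25%) rose and 4 (50%) fell, with a median log2 difference of -0.27. Among all genes tested the shares were 24.3% and 33.3%. BCL6, the germinal centre repressor, had 148 and 118 in high glucose against 271 and 334 in low glucose, at -1.19 ± 0.16 (adjusted p = 0.000568). GZF1 fell by 0.79 on the log2 scale, and was at -0.38 with the mean of its probe sets (adjusted p = 0.0499). PATZ1 fell by 0.38, but was not called after median centring (adjusted p = 0.0938) or without high glucose array 2 (adjusted p = 0.0585). NACC1, which has a BTB domain but no zinc fingers, rose by 0.71, with -0.26 and no call when its probe sets were averaged. Of 22 other SCAN domain genes, 1 (4.5%) rose and 10 (45.5%) fell, with a median of -0.31. The 4 with the smallest p were SCAND1, which has a SCAN domain alone, at -0.44, MZF1 at -0.67, ZNF446 at -0.67 and ZNF232 at -0.62. The SCAND1 value comes from a probe set named _x_at. Without probe sets named _x_at or _s_at SCAND1 was not measured, and ZNF446 was at -0.46.

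The corepressors and the ubiquitin ligase that BTB proteins use were counted in the same way. Of 12 tested, 3 (25%) rose and 2 (16.7%) fell, with a median of -0.02, against 24.3% and 33.3% of all genes tested. CUL3, the ligase scaffold, rose by 0.76, HDAC1 by 0.37 and TBL1XR1, a subunit of an HDAC3 corepressor complex, by 0.25, while BCOR fell by 0.50 on the log2 scale. BCOR was at -0.33 after median centring and at -0.32 without probe sets named _x_at or _s_at. TBL1XR1 was not called without high glucose array 1 (adjusted p = 0.0554), without low glucose array 1 (adjusted p = 0.0515) or without an intensity trend (adjusted p = 0.0582). Of 14 genes of the KRAB corepressor TRIM28 and its partners, 2 (14.3%) rose and 4 (28.6%) fell, with a median of -0.13. PPHLN1, of the HUSH silencing complex, rose by 0.81, or 0.37 with the mean of its probe sets, and SETDB1 fell by 0.78. CBX5 fell by 0.48 and CHD3 by 0.41, but with the mean of their probe sets CBX5 was at 0.56 and CHD3 at -0.05, and CHD3 was at 0.31 without probe sets named _x_at or _s_at.

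Reported targets of 3 members were also set beside them. The glucose transporter gene SLC2A3 and the glycolysis genes PFKP and PKM have been reported as repressed by ZBTB7A. They were higher in high glucose, by 1.09, 0.65 and 0.42 on the log2 scale, as was ZBTB7A. Of the reported targets of ZBTB17, CDKN1A had 628 and 660 in high glucose against 2548 and 2437 in low glucose, a log2 difference of -1.95, and CDKN2B rose by 0.64. MYC, the partner of ZBTB17, rose by 0.34. Of the autophagy genes reported as targets of ZKSCAN3, MAP1LC3B fell by 1.03, or by 0.53 with the mean of its probe sets, and ULK1 fell by 0.32. WIPI2 rose by 0.28 on its brightest probe set, but was at -0.35 with the mean of its probe sets and at -0.75 without those named _x_at or _s_at. ULK1 was not called after median centring (adjusted p = 0.273), without high glucose array 2 (adjusted p = 0.104) or without low glucose array 1 (adjusted p = 0.0766).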

How the data were processed

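Total RNA of 4 samples was labelled with biotin and hybridised to Affymetrix arrays, per the labels' protocols. Per the labels and values, the authors deposited a linear signal intensity for each probe set on each array. GCOS, the Affymetrix array software, is named per the submitters' processing notes, with no version, and the sources used here give no other step. The 2% trimmed mean was 200.02 on each array, so scaling preceded deposit.

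Signals were taken to log2 with no pseudocount. Of 54675 probe sets, 62 controls were left out, and 27307 with a mean at or above the median (a signal of 32.9) were kept. The brightest probe set represented each of 12242 genes. The 2 groups were tested in limma 3.58.1 (R 4.3.3) with lmFit and eBayes with an intensity trend. P-values are two-sided, with Benjamini-Hochberg adjustment over all genes. A second fit took all 27307 probe sets as rows. Errors beside log2 differences are standard errors with n = 2 arrays a group, and the number of arrays limits the precision. The test was tested on simulated data in which few genes changed, unlike here, so that run does not cover the share of calls in these data. The platform annotation named 1 gene for 41091 probe sets, several for 1801 and none for 11777. All 66 member genes were matched by gene identifier to the RefSeq gene table.

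The members and lists were chosen with earlier results of these data known. The naming rule took, in each family, up to 8 called genes of largest rise and of largest fall with arrays that did not overlap, genes with probe sets called both ways, ZBTB7A, ZBTB17, ZBTB33, ZKSCAN1 and ZKSCAN3 whatever their values, the others by name, and up to 4 genes of smallest p in each related list. Other genes given with values were chosen after these were seen. List members without a tested probe set were not analysed here. Alternatives changed the normalization, filter, pseudocount, variance model and probe set per gene, added the replicate block, or left out 1 array.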

Additional observations from a re-analysis of the deposited data

How the results depend on the processing

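Under the 14 alternatives, 15 of the 30 called members kept their call and direction wherever they were measured, and the other 15 lost the call at least once, of which ZBTB43, ZBTB44 and ZSCAN18 also changed sign. With the mean of a gene's probe sets ZBTB43 was at 0.312, ZBTB44 at 0.084, CBX5 at 0.558, NACC1 at -0.257, WIPI2 at -0.354, ZKSCAN5 at -0.067 and ZSCAN9 at 0.128. Without _x_at and _s_at probe sets ZSCAN18 was at 0.164, CHD3 at 0.308 and WIPI2 at -0.749, and 11 ZBTB genes were called lower. These 2 settings swap or average the probe sets by construction. Of the 27 uncalled members, 8 were called at least once and 16 changed sign. After median centring 8 ZBTB genes were called higher, and 2 ZSCAN genes lower. No ZSCAN gene was called higher without the filter, without the trend or with the replicate block, with unadjusted p = 0.0274 for ZSCAN32 as reported. The ZBTB median was -0.168 after cyclic loess, -0.150 after quantile normalization and -0.047 after median centring, and the ZSCAN median -0.224, -0.184 and -0.153. The ZKSCAN median was -0.080 after median centring. Without _x_at and _s_at probe sets the ZSCAN median was -0.204 and the ZKSCAN median -0.371. The cause of these shifts was not tested.

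With 1 array left out, the lone array of a group is assumed to vary like the others. ZBTB calls then ranged from 3 to 5 higher and from 14 to 16 lower, ZSCAN calls were 0 higher and 2 to 4 lower, and ZKSCAN calls 0 higher and 3 lower. Medians ranged from -0.270 to -0.202 for ZBTB, -0.375 to -0.226 for ZSCAN and -0.337 to -0.258 for ZKSCAN. The groups share replicate numbers, but deviations of same-numbered arrays correlated at r = -0.00388, so the numbers were not taken as pairs. With the replicate block 5 ZBTB genes were higher, where ZBTB25 lost its call (adjusted p = 0.0570) and ZBTB38 gained one (adjusted p = 0.0162), and 17 were lower, 4 ZSCAN and 3 ZKSCAN genes were lower, and 2959 genes in all were higher and 4024 lower. Dim members near the filter, such as ZBTB25 and ZBTB42, limit what these arrays can resolve.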

Other observations

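Symbols that begin like a member but name another gene were kept apart, 12 probe sets of 9 symbols. ZBTB8OS, a gene next to ZBTB8A that encodes a factor of the tRNA ligase complex and no zinc finger protein, had 776 and 753 signal units in high glucose against 457 and 475 in low glucose. It rose by 0.71 on the log2 scale (limma, adjusted p = 8.64e-05), while ZBTB8A was not called, at -0.18. Of the antisense transcripts past the filter, ZBTB11-AS1 was at -0.17 (limma, adjusted p = 0.506), beside 0.09 for ZBTB11. ZSCAN16-AS1 had 66.1 and 43.5 in high glucose against 78.5 and 103 in low glucose, at -0.75 (limma, adjusted p = 0.0524), beside -0.30 for ZSCAN16. The other 6 symbols had no probe set past the filter.

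By chromosome, 12 of the 57 tested members lie on chromosome 6, of which 2 were called higher and 3 lower. Another 9 lie on chromosome 1, of which none was higher and 2 lower. Of all genes tested, on any chromosome, 24.3% were higher and 33.3% lower. The 3 members on chromosome 14 are ZBTB1, ZBTB25 and ZBTB42, the pair with the shared start region that rose and the member with the lowest difference.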
